A study of Mus musculus with 12 samples.

Results

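Lymphocyte marker genes were examined in whole mouse hearts as a set of 10 genes, each chosen by name: Cd3d, Cd3e, Cd3g, Cd4, Cd8a, Cd79a, Cd79b, Ms4a1, Ptprc and Coro1a. Every probe whose annotated symbol was a member was followed on 12 Illumina bead arrays, giving 19 probes of the 45281 on the array and 9 of the 10 genes, out of 19057 genes named by a single symbol. No probe used here was annotated to Cd79a. All hearts came from male C57Bl/6 mice labelled as 8 weeks old, 6 of them exercised by voluntary running on a wheel for 7 days and 6 sedentary at the same time point. Whether the numbered samples of a group are different animals is not stated in the labels. The p-values therefore reflect variation among these samples, part of which may be technical.

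T lymphocytes recognise antigen through a receptor whose signal is carried by the CD3 chains, with CD4 or CD8 as co-receptor, and B lymphocytes through surface immunoglobulin whose signal is carried by CD79A and CD79B. CD20, the product of Ms4a1, is a membrane protein of B cells. CD45, the phosphatase encoded by Ptprc, and coronin 1A, the actin-binding protein encoded by Coro1a, are made by leukocytes in general, macrophages included, so neither gene marks lymphocytes alone. The healthy heart holds few lymphocytes beside a larger population of resident macrophages. In RNA of a whole organ, fewer cells of a type and less RNA per cell cannot be told apart.

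Cd3g, Cd3d and Cd3e lie next to each other on chromosome 9 in RefSeq, whereas the other members lie apart. The windows of 250 bases before the annotated start of Coro1a and of Cd3g, taken from the RefSeq promoter table, are shown because Coro1a was the member that every array detected and Cd3g a chain of the T cell receptor at the edge of detection. Capitals mark each match to the E-box motif CANNTG, searched on both strands, which reads the same in either direction. Both windows are given on the minus strand of GRCm38.p6, 5′ to 3′, at chr7:126704817-126705066 for Coro1a and chr9:44980432-44980681 for Cd3g.
Coro1a: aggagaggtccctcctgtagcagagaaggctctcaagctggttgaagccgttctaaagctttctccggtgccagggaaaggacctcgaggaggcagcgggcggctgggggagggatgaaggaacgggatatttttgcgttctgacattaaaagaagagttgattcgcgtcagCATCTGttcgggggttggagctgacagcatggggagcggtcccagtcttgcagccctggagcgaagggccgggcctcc
Cd3g: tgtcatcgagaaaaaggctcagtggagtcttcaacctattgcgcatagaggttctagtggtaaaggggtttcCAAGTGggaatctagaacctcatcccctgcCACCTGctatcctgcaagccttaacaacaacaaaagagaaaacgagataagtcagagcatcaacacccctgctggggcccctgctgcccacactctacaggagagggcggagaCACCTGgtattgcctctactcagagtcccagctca
The Coro1a window held 1 such match and 13 CpG dinucleotides, and the Cd3g window held 3 matches and 4 CpG dinucleotides. The motif occurred in 66.2% of all 32851 windows of this length, and the median window held 6 CpG dinucleotides. The 7 members with an entry had 9 windows, with between 0 and 13 CpG dinucleotides each. These matches are a description of the letters and say nothing of the factors that bind there.

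The hearts carried the transcripts of heart muscle: the cardiomyocyte list had all 15 genes with a probe measured, with a list mean of 14.06 to 14.21 in exercised and 13.94 to 14.14 in sedentary samples (log2 normalised intensity). Between 16619 and 18708 probes were detected per array, at a detection p under 0.01, which is the chance that a signal lies within the array's negative controls. The raw signal fell into a low range on 8 arrays and a high range on 4, namely exercised replicates 2, 3 and 6 and sedentary replicate 2. A list of liver genes had a mean of 10.88, 12.32 and 13.20 in exercised replicates 1, 5 and 6, against 6.56 to 8.55 on the other arrays. How precise each value is depends on having 6 arrays a group.

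Apart from a Cd79b probe detected on 11 of 12 arrays, the probes of T and B cell markers were at or near the limit of detection in hearts of either group. Of the 9 genes with a probe, 6 were detected on no array by any probe: the CD3 chains Cd3d and Cd3e, the co-receptors Cd4 and Cd8a, the B cell gene Ms4a1, and Ptprc. Cd3g was detected on 1 array. Only Coro1a and Cd79b had probes detected on at least 6 of 12 arrays, the filter used for testing, and these were 5 of the 19 probes. The label of the set therefore fitted only in part: the genes that define T cells gave no more than scattered signal, and the member that every array detected is a gene of all leukocytes.

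**Figure D1:**
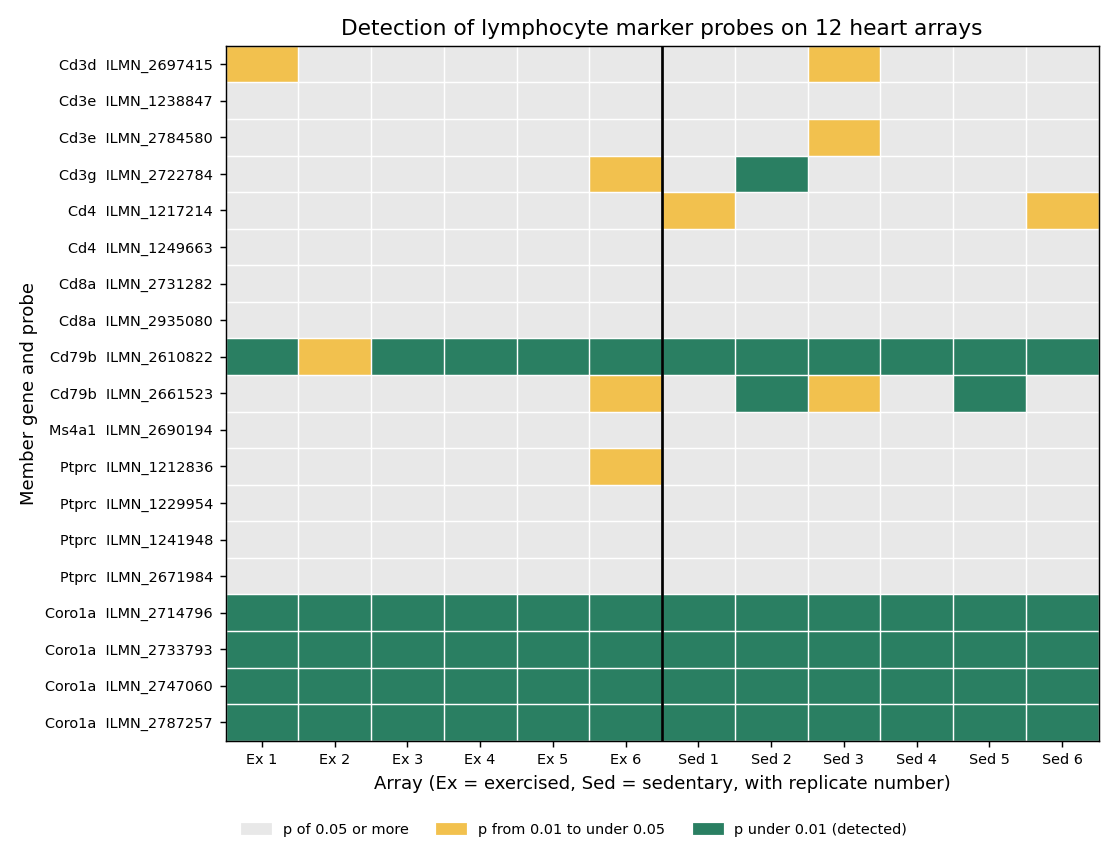
Detection of the 19 member probes (rows) on the 12 arrays (columns), coloured by detection p. The 4 Coro1a probes were detected on all 12 arrays and a Cd79b probe on 11, while 12 probes were detected on none.

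Of the 19 member probes, 12 were detected on no array, 2 on 1 to 5 arrays, 1 on 11 arrays and 4 on all 12. Among all 45281 probes, 50.3% were detected on no array and 31.4% on all 12, beside 63.2% and 21.1% of the member probes. Each array detected between 4 and 7 member probes. The 14 probes below the filter had levels of at most 5.19, on a scale whose floor is 4 and on which the dimmest detected probe of any kind stood at 4.90 to 5.20 depending on the array. Their levels are therefore bounds on the signal of these probes, and no fold change is given for them. Whether each probe can report its RNA was not tested, so a missing signal does not show that the RNA is low. Of listed genes of other cell types with a probe, 13 of 15 endothelial and 15 of 20 liver genes passed the filter. The endothelial gene Kdr was detected on at most 2 arrays, and the liver gene Alb on at most 1.

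Cd3d, a signalling chain of the T cell receptor complex, had levels of 4.29, 4.32 and 5.04 (lowest, median, highest) in exercised and 4.47, 4.70 and 4.91 in sedentary hearts. The exercised hearts lay below every sedentary heart in 5 of 6 cases, and exercised replicate 1 lay above them all. No array reached a detection p under 0.01 (lowest 0.032), so this order lies within signal that was not told from background. Cd3e, the chain that pairs with CD3 delta and CD3 gamma, had 2 probes, with levels of 4.29 to 4.60 and of 4.32 to 5.10 over all arrays. Their lowest detection p was 0.167 and 0.012. Cd3g, the gamma chain, had levels of 4.30, 4.44 and 4.86 in exercised and 4.31, 4.56 and 5.01 in sedentary hearts. The highest value was that of sedentary replicate 2, the only array that detected the gene, and the groups overlapped.

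Neither T cell co-receptor was detected on any array. Cd4, which marks helper T cells, had a probe with levels of 4.23, 4.36 and 4.69 in exercised and 4.22, 4.57 and 5.01 in sedentary hearts, with a detection p under 0.05 on 2 sedentary arrays and under 0.01 on none. Its other probe stayed between 4.32 and 4.58. Cd8a, which marks cytotoxic T cells, had a probe with a median detection p of 0.947 and levels of 4.22 to 4.29 in exercised hearts and of at most 4.31 in sedentary hearts. The other Cd8a probe ranged from 4.23 to 4.74.

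Ms4a1 had levels of 4.32, 4.46 and 4.73 in exercised and 4.25, 4.43 and 4.74 in sedentary hearts, and the groups overlapped over nearly their whole range. Ptprc, with 4 probes, the most of any member together with Coro1a, had levels of 4.25 to 4.82 over all probes and arrays, and the lowest detection p among the 48 values was 0.045. Hearts of either group thus gave no Ptprc signal at the detection threshold on any array. Below the filter, 12 of 168 probe and array values had a detection p under 0.05, 4 of 84 in exercised and 8 of 84 in sedentary hearts. A detection p under 0.01 was reached by 3, all in sedentary hearts. By the definition of this p, background signal alone falls under 0.05 and 0.01 at rates of 0.05 and 0.01. The split by group was not tested. In a fit without the filter, over all 45281 probes, none of the 19 member probes had a limma adjusted p under 0.20.

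Cd79b, the signalling partner of CD79A in the B cell receptor, was the only member among the T and B cell receptor genes with a probe above the filter, and its probes differed in detection. Probe ILMN_2610822 was detected on 5 of 6 exercised and 6 of 6 sedentary arrays, with levels of 4.91, 5.47 and 6.23 in exercised and 5.15, 6.36 and 6.58 in sedentary hearts. The groups overlapped: 4 of 6 sedentary hearts lay above every exercised heart, and 1 of 6 exercised hearts lay below every sedentary heart. Exercised hearts averaged 5.55 ± 0.44 and sedentary hearts 6.17 ± 0.54 (SD, n = 6). The log2 difference of exercised minus sedentary was -0.63 (SE 0.25, 95% interval -1.16 to -0.09), or 0.648-fold, and did not pass the threshold (limma adjusted p = 0.29, unadjusted p = 0.025).

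The level of this probe also moved with the raw background of the arrays. It was 4.91, 5.43 and 5.47 on the 3 exercised and 5.15 on the single sedentary array of the high range, and 5.48 to 6.23 on exercised and 6.04 to 6.58 on sedentary arrays of the low range. With group and range in a joint fit, the high range was lower by a log2 difference of -0.80 (SE 0.19, limma adjusted p = 0.0047). The difference of exercised minus sedentary was then -0.36 (SE 0.18), and within the low range alone it was -0.55 (SE 0.19). It was -0.19 (SE 0.07) on the authors' deposited values, -0.32 with no background correction, and -0.40 with an offset of 50. With median scaling it was -0.38, or -0.63 relative to the median of all probes tested. The other Cd79b probe, ILMN_2661523, was detected on 2 sedentary arrays and no exercised array, with levels of 4.43 to 5.19, so only ILMN_2610822 measured the gene above the filter.

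Coro1a, the leukocyte coronin that binds F-actin and the Arp2/3 complex, was measured by 4 probes, each detected on all 12 arrays. The probes share an annotated gene and the same samples, so they are not independent of each other. Probe ILMN_2714796, the brightest, had levels of 8.00, 8.27 and 8.75 in exercised and 8.59, 9.12 and 9.26 in sedentary hearts. Of the sedentary hearts, 5 of 6 lay above every exercised heart, and 4 of 6 exercised hearts lay below every sedentary heart. The overlap came from exercised replicates 4 and 5, at 8.75 and 8.64, and sedentary replicate 2, at 8.59. The means were 8.34 ± 0.31 and 9.04 ± 0.25 (SD, n = 6), a log2 difference of -0.70 (SE 0.15, 95% interval -1.02 to -0.38) or 0.616-fold. The limma adjusted p was 0.11 over the 17098 probes tested, above the threshold of 0.05, with an unadjusted p of 0.00036.

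The other Coro1a probes gave smaller differences with the same sign. Probe ILMN_2787257 had levels of 7.20, 7.44 and 7.77 in exercised and 7.62, 8.11 and 8.30 in sedentary hearts. Its log2 difference was -0.58 (SE 0.13, limma adjusted p = 0.11), and only sedentary replicate 2, at 7.62, lay within the exercised range. Probe ILMN_2747060 had levels of 5.22, 5.37 and 6.13 in exercised and 5.64, 6.12 and 6.16 in sedentary hearts, where exercised replicate 4 alone lay inside the sedentary range. Its difference was -0.55 (SE 0.17, limma adjusted p = 0.19). Probe ILMN_2733793 had levels of 5.50, 5.70 and 5.96 in exercised and 5.75, 6.19 and 6.43 in sedentary hearts, and sedentary replicate 5 alone lay inside the exercised range. Its difference was -0.44 (SE 0.13, limma adjusted p = 0.20).

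**Figure D2:**
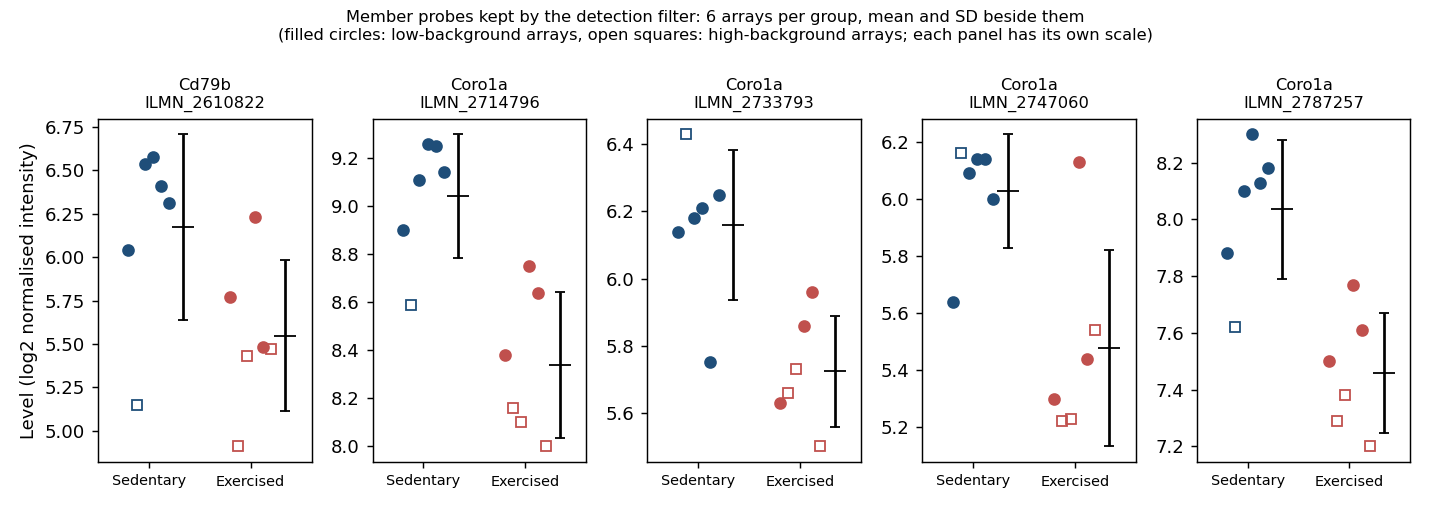
Levels of the 5 member probes above the filter (log2 normalised intensity), a point per array, with group mean and SD beside the points; each panel has its own scale. Exercised means lie below sedentary means for every probe, the groups overlap in each, and open squares mark the 4 arrays of the high background range.

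Read over the set, none of the 5 member probes tested passed an adjusted p under 0.05 in limma, where 15 of 17098 probes did (0.0877% in either direction and 0.0819% lower in exercised hearts). All 5 had an unadjusted p under 0.05 and a lower mean in exercised hearts, beside 9.66% of all probes tested, but 4 of these 5 are probes of Coro1a. None of the 5 had groups that did not overlap with exercised hearts lower, beside 0.749% of all probes. The median log2 difference over all probes tested was -0.03, and 54.7% were negative.

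The difference of Coro1a depended on the processing in size and in its call. When the raw background range was entered as a block, the difference of the brightest probe was -0.53 (SE 0.10) and passed the threshold (limma adjusted p = 0.041), and the high range itself was lower by a log2 difference of -0.51 (SE 0.10). Within the high range the 3 exercised arrays had a mean of 8.09, and the single sedentary array was at 8.59. Within the low range the means were 8.59 in 3 exercised and 9.13 in 5 sedentary arrays, with a difference of -0.54 (SE 0.12, limma adjusted p = 0.092). Without sedentary replicate 2 the adjusted p was 0.026 and the high range held exercised arrays alone, so that range and group cannot be told apart there. With array weights it was 0.012. Under median scaling, where all probes tested had a median of 0.26, the difference was -0.35 (limma adjusted p = 0.60). Relative to that median it was -0.60, a value that was not tested. Without the 3 liver-rich arrays the difference was -0.70 (SE 0.18, limma adjusted p = 0.33). The smaller signals of ILMN_2733793 and ILMN_2747060 gave -0.13 and -0.15 on the authors' deposited values and -0.22 and -0.25 with no background correction, and ILMN_2733793 gave -0.29 on the low-range arrays alone. The cause of these shifts was not tested.

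**Figure D3:**
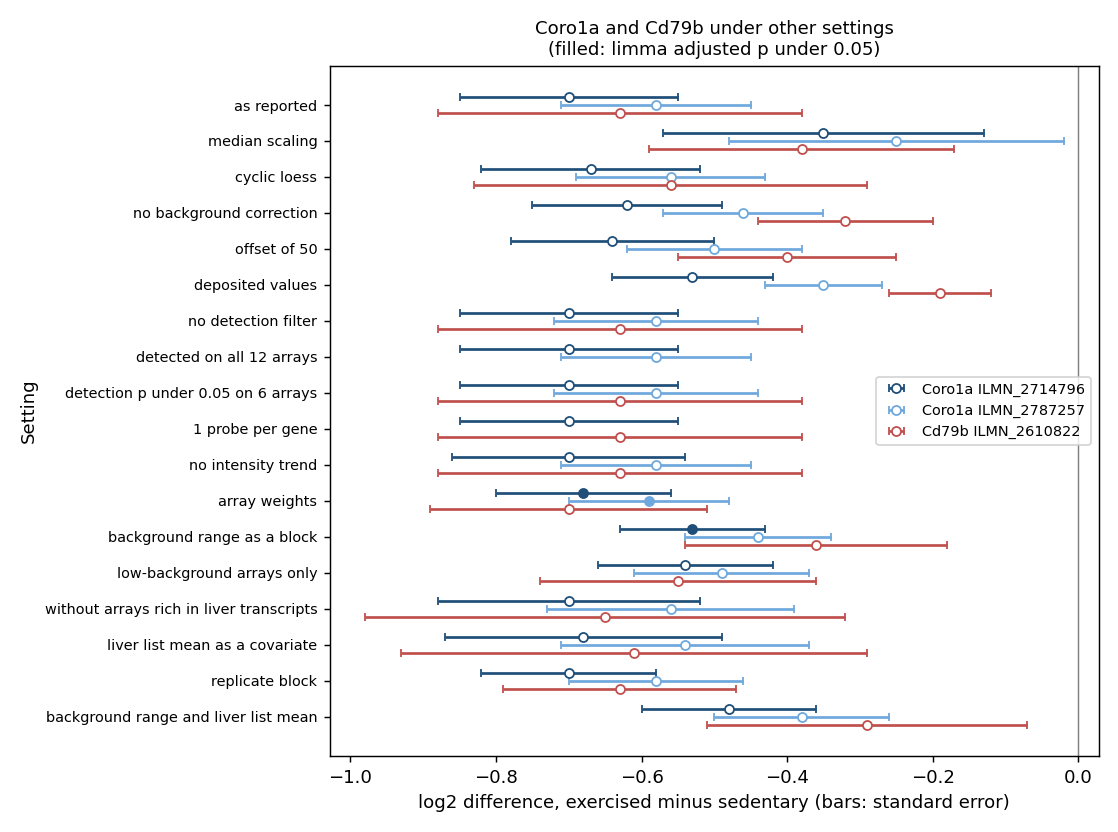
Log2 differences (exercised minus sedentary, with standard errors) of 2 Coro1a probes and the Cd79b probe under each setting that is not the leaving out of a single array, with filled points where the limma adjusted p is under 0.05. Every point shown lies below 0, and the filled points are the 2 Coro1a probes with array weights and the brighter of them with the background block.

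Genes whose pattern over the 12 arrays was most like that of the brightest Coro1a probe were Slamf9, Rgs10 and Bcl2a1d, with Pearson r of 0.979, 0.972 and 0.967. Slamf9, a receptor of the SLAM family, averaged 8.07 ± 0.28 with exercise and 8.93 ± 0.30 without (SD, n = 6), a log2 difference of -0.86 (SE 0.16, limma adjusted p = 0.052). Rgs10, a regulator of G protein signalling, differed by -0.75 (SE 0.21) and Bcl2a1d, of the BCL2 family, by -0.95 (SE 0.29). For Cd79b the most similar were Pcolce2, an enhancer of procollagen processing, Gsdmd, the pore-forming gasdermin D, and Fam114a1, with r of 0.961, 0.943 and 0.938. The brightest Coro1a probe and the Cd79b probe had an r of 0.85 with each other, while the Cd79b probe had an r of 0.32 to 0.88 over the 4 Coro1a probes. These arrays share the group and the background range, and genes with such values were picked as the highest of 9843, so the correlations describe likeness only.

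Further genes of T cells were mostly below the filter as well. Of 26 listed genes of the T cell receptor pathway and T cell identity with a probe, 9 were detected on no array and 8 were measured. Over the whole array, 9843 of the 19057 genes named by a single symbol were measured, the share beside which this and the later lists stand. None of the 8 was called, 6 had a negative difference and the median was -0.24. Median scaling, which put all probes tested at a median of 0.26, gave the list 0.08, or -0.18 relative to that median. Of the components that relay the receptor signal, Lat was detected on no array, Zap70 on 1 and Cd247, the zeta chain, on 3. Thy1, a surface protein of T cells and also of other cell types, averaged 7.96 ± 0.18 with exercise and 8.52 ± 0.30 without (SD, n = 6), a log2 difference of -0.56 (SE 0.14, limma adjusted p = 0.13). Ctla4 differed by -0.38 (SE 0.16), Cd8b1 by 0.11 (SE 0.11) and Foxp3 by -0.09 (SE 0.09). Of the dimmer measured genes, Cd28 went the other way, at 0.53 (SE 0.17, limma adjusted p = 0.22). Rasgrp1 differed by -0.38 (SE 0.16), Cd27 by -0.40 (SE 0.16) and Bcl11b by 0.00 (SE 0.22).

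Genes of B cells gave a similar picture. Of 24 listed genes with a probe, 11 were detected on no array, among them Pax5, the B cell transcription factor, Cd22 and Cr2. Of the 7 measured, none was called, 6 were negative and the median was -0.14, or 0.01 with liver signal as a covariate. With median scaling it was 0.15, or -0.11 relative to the median of all probes. Cd72, an inhibitory co-receptor of B cells, averaged 5.78 ± 0.27 with exercise and 6.64 ± 0.41 without (SD, n = 6), a log2 difference of -0.87 (SE 0.19, limma adjusted p = 0.11). Btk, a kinase of the B cell receptor that myeloid cells also use, differed by -0.45 (SE 0.16), Ebf1 by -0.16 (SE 0.15) and Plcg2 by -0.01 (SE 0.11).

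Markers of the neighbouring lymphoid organs were looked for because thymus and lymph nodes lie near the heart. Of 14 listed thymus genes, 7 were detected on no array, with the recombinase genes Rag1 and Rag2 and the polymerase gene Dntt among them. The 4 measured had a median of 0.21, and none was called. Satb1, a chromatin organiser, differed by 0.34 (SE 0.09), Cd1d1, which presents lipids, by 1.01 (SE 0.32), Ccl25 by -0.40 (SE 0.24) and Arpp21 by 0.07 (SE 0.19). Cd1d1 varied more among exercised hearts, at 6.92 to 9.27, than among sedentary hearts, at 6.47 to 7.09, and the groups overlapped. The lymph node and homing list had 6 measured genes, all negative, with a median of -0.47 and none called. The chemokine genes Ccl21a and Ccl21c, which draw lymphocytes and dendritic cells, differed by -0.68 (SE 0.21) and -0.63 (SE 0.20), and their near-identical sequences may share signal. Klf2, a factor of endothelial cells and of resting T cells, differed by -0.79 (SE 0.16, limma adjusted p = 0.082). Ccl19 differed by -0.32 (SE 0.20).

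Of the listed genes with a probe, 22 of 30 pan-leukocyte genes and 20 of 21 macrophage and monocyte genes were measured. Detected on no array were 3 of the pan-leukocyte genes, Cd48, Dock2 and Ptprcap, as was Ptprc itself. The measured genes, like Coro1a, had lower means in exercised hearts, although none passed the test. All 22 measured pan-leukocyte genes were negative, with a median of -0.50 and none called, and the list mean was 6.71 to 7.08 in exercised and 7.07 to 7.65 in sedentary hearts. Among them Tmsb4x, which binds actin monomers, differed by -0.54 (SE 0.11), Laptm5 by -0.51 (SE 0.16), Arhgdib by -0.54 (SE 0.12) and Cd52 by -0.89 (SE 0.32). All 20 measured macrophage and monocyte genes were negative too, with a median of -0.67, none called, and list means of 7.52 to 8.08 in exercised and 7.94 to 8.75 in sedentary hearts. C1qb and C1qc, subunits of the complement protein C1q, differed by -0.66 (SE 0.12) and -0.55 (SE 0.12), Lyz2 by -0.47 (SE 0.10) and Mrc1 by -0.34 (SE 0.11). With median scaling the 2 medians were -0.19 and -0.35, or -0.45 and -0.60 relative to the median of all probes. With the background range as a block they were -0.39 and -0.48, and on the low-range arrays alone -0.45 and -0.50. The part of macrophages in the Coro1a difference was not tested.

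Coro1a was also set beside other coronins and actin regulators. Of 15 measured, 14 were negative and none was called, with a median of -0.27. With median scaling it was 0.04, or -0.22 relative to the median of all probes. Arpc5 and Arpc2, subunits of the Arp2/3 complex, differed by -0.14 (SE 0.11) and -0.34 (SE 0.19), Actr3 by -0.02 (SE 0.11) and Wasf2 by -0.27 (SE 0.12). Of the other coronins measured, Coro1b differed by -0.26 (SE 0.13) and Coro1c by -0.27 (SE 0.10). Coro2b differed by -0.37 (SE 0.19) and Coro7 by -0.11 (SE 0.22), while Coro6, at 0.37 (SE 0.14), was the only positive gene of the list. The most negative genes were Arpc1b, at -0.64 (SE 0.23), and Cfl1, at -0.53 (SE 0.16).

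Other blood and vessel cells were listed to set the lymphocyte markers beside them. The NK and cytotoxic list had 2 of 17 genes measured, Prf1, perforin, at -0.10 (SE 0.25) and Ccl5 at -0.39 (SE 0.26), and a median of -0.24. With median scaling that was 0.01, or -0.25 relative to the median of all probes. The neutrophil list also had 2 measured, S100a8 at -0.93 (SE 0.28) and Mmp9 at -0.19 (SE 0.20). Of 7 mast and dendritic cell genes measured, all were negative, with a median of -0.43 and Cpa3, the mast cell carboxypeptidase, at -0.79 (SE 0.21), Mcpt4 at -0.68 (SE 0.18), Siglech at -0.35 (SE 0.22) and Kit at -0.03 (SE 0.21). Red cell genes had a median of -0.26, which was -0.51 with liver signal as a covariate and -0.43 without the liver-rich arrays. With median scaling it was 0.03, or -0.22 relative to the median of all probes. The bright globin genes Hba-a1, Hbb-bs and Hbb-bt differed by -0.18 (SE 0.08), 0.00 (SE 0.06) and -0.09 (SE 0.11), and Alas2 by -0.35 (SE 0.33). Hbb-bs peaked at 15.14 in both groups, the same highest level as Myl2. The dimmer globin gene Hbb-b2 differed by -1.02 (SE 0.36, limma adjusted p = 0.25) and Slc4a1 by -0.56 (SE 0.39). Of 13 endothelial genes measured, all were negative, with a median of -0.36, and Ly6c1 fell by 0.44 (SE 0.08, limma adjusted p = 0.046), the only gene called in these 14 lists. No probe of the array was called with median scaling, where the endothelial median was -0.04, or -0.30 relative to the median of all probes. Egfl7 differed by -0.36 (SE 0.13), Esam by -0.38 (SE 0.11) and Emcn by -0.47 (SE 0.10). The cardiomyocyte median was 0.05, with the brightest genes Myl2, Myl3 and Tnnc1 at 0.05 each and Atp2a2 at -0.03. Of the measured cardiomyocyte genes 10 were positive and 5 negative, and 4 were higher and 1 lower at a limma unadjusted p under 0.05. The 4 were Ttn at 0.43 (SE 0.12), Mybpc3 at 0.27 (SE 0.11), Ckm at 0.24 (SE 0.08) and Actn2 at 0.22 (SE 0.08). The 1 lower was Tnni3, at -0.27 (SE 0.13). The liver median was 2.80, with Mup2 at 2.69 (SE 0.80), Trf at 1.45 (SE 0.61), Serpina1b at 2.91 (SE 1.03) and Cyp2e1 at 2.80 (SE 0.82). Without the liver-rich arrays, all of them exercised, the liver median was 0.26.

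**Figure D4:**
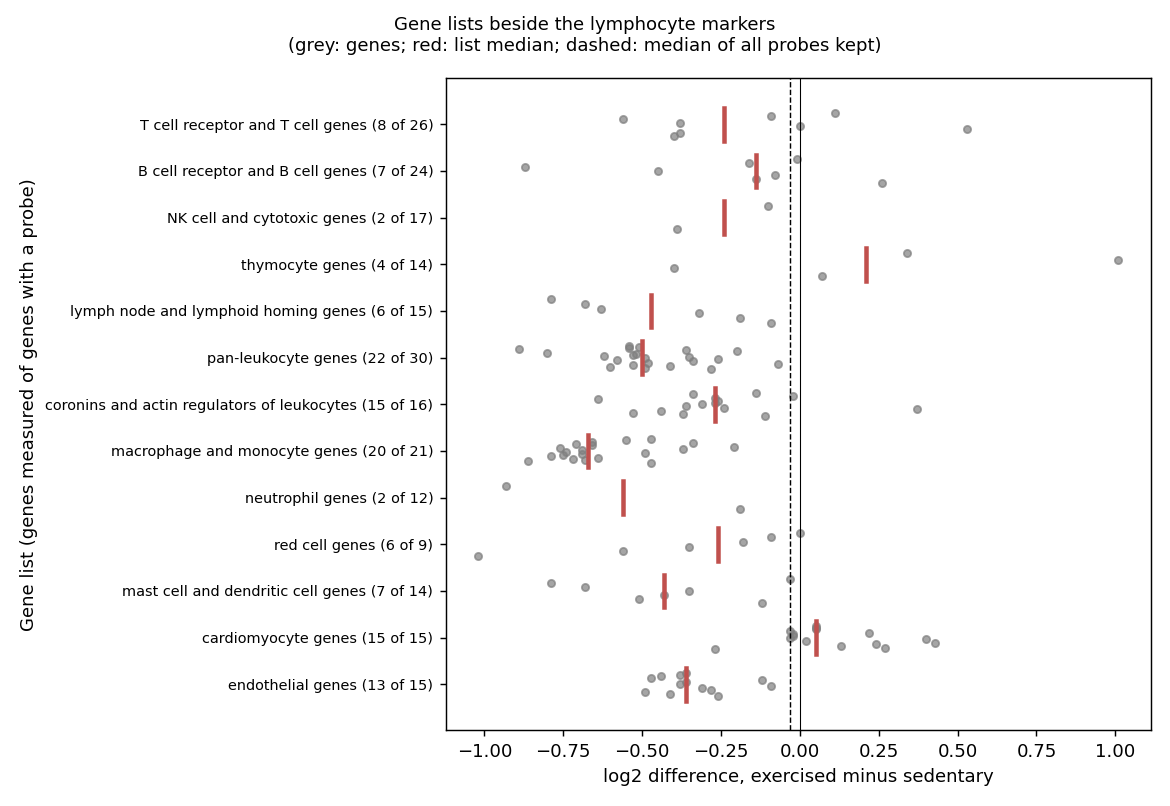
Log2 differences (exercised minus sedentary) of the measured genes of 13 lists, a grey point per gene, with the list median in red and the median of all probes tested as a dashed line. The pan-leukocyte and macrophage points all lie below 0, as do those of the endothelial, mast and dendritic cell, lymph node, neutrophil and NK lists. Most listed T, B and NK cell genes were not measured. The liver list, with a median of 2.80, is left out of the plot.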

How the data were processed

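Heart RNA was hybridised to Illumina mouse arrays. Per the file headers, the deposited intensity of each probe is not normalized. The deposited detection p-value beside it is named in the same headers. A further table by the authors was read as log2 from its values. How they transformed it is not stated. The submitters' processing notes name the tool lumi.

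Intensities were background-corrected with limma's neqc method (offset 16, background inferred from the detection p-values) and quantile-normalized. Tested were the 17098 of 45281 probes that 6 or more arrays detected at p under 0.01, probe by probe, so that each member probe has its own value. Platform annotation gave 34885 probes with 1 symbol, 18 with several and 10378 with none, and the member symbols matched RefSeq. Exercised and sedentary arrays, assigned from the labels, were compared with limma 3.58.1 in R 4.3.3 (intensity trend, Benjamini-Hochberg over all probes tested, threshold 0.05), after a test on simulated data. Lists used the brightest tested probe per gene. Named genes were all member probes, the 4 brightest genes of each list and any called, and the 3 genes most correlated with each tested member. Further genes of the T cell, red cell, actin regulator and cardiomyocyte lists, and Kdr and Alb, were named after their values were seen. Members, lists and settings were chosen with earlier results of these data known.

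Replicate numbers were not used to pair arrays. Alternatives covered normalization, filters, variance, background range (split at a 5th percentile of 75), liver transcripts, replicate block and each array left out. Lists are described by counts and medians, with no set test.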

Additional observations from a re-analysis of the deposited data

Results flagged for a closer look

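Of 38 groups of member values examined, 6 held an array whose gap to its nearest neighbour was large against the range of the group. About 1.9 such groups would arise if the groups were independent and their values normal. Probes of a gene share arrays, and values near the floor are not normal, so the 2 counts are no test of an excess. For probes below the filter these were Cd3d at 5.04 in exercised replicate 1, Cd4 (ILMN_1249663) at 4.58 in sedentary replicate 5, and Cd8a (ILMN_2935080) at 4.54 in exercised replicate 5 and 4.74 in sedentary replicate 4. None of these 4 values had a detection p under 0.01. For the Coro1a probe ILMN_2747060 they were 6.13 in exercised replicate 4, far above its group, and 5.64 in sedentary replicate 1, far below its group. The other Coro1a probes did not set these arrays apart by the same measure.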

How the results depend on the processing

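Every log2 difference of the 5 tested member probes stayed negative under all settings that tested it. The brightest Coro1a probe ranged from -0.79 to -0.35 over 29 settings and was called in 3, and ILMN_2787257 ranged from -0.66 to -0.25 over 28 and was called in 2. The Cd79b probe ranged from -0.83 to -0.19 over 28 settings and was called in none. The count of member probes called was 0, but 2 with array weights and 1 with the background range as a block, and 0 to 2 when single arrays were left out (2 without sedentary replicate 2). Over all probes the count of 15 became 0 with median scaling and 1 each with cyclic loess, deposited values, no filter, the looser detection filter, no intensity trend, the liver covariate and without the liver-rich arrays. It was 25 for probes detected on all 12 arrays, 576 with array weights, 37 with the background block, 4 with background and liver terms together (added after seeing the data) and 1 to 266 when single arrays were left out (266 without sedentary replicate 2, 19 without sedentary replicate 1, 8 without exercised replicate 1, 1 or 2 without any of the others). With the replicate block it was 3 and no member was called: the brightest Coro1a probe gave -0.70 (limma adjusted p = 0.12). Same-numbered arrays had deviations that correlated from -0.32 to 0.61, and the best partner had the same number for 2 of 6. The causes of these shifts were not tested. Signal over background limits all members but Coro1a and Cd79b. The tested members rest on 6 arrays per group, with 3 of the 4 high-background arrays exercised.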

Other observations

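Several T cell and cytotoxic genes had probes that differed widely in detection, as did Cd79b. These genes were picked after their values were seen. Of 3 Cd8b1 probes, ILMN_1257694 was detected on all 12 arrays at 9.42 to 9.93, ILMN_2664929 on 1 array and ILMN_2741169 on 5, while Cd8a, whose product pairs with that of Cd8b1, was detected on none. Of 4 Foxp3 probes, ILMN_1251126 was detected on all 12 arrays at 8.40 to 8.84, ILMN_2635132 on 3 and the other two on none. Prf1 had a probe on all 12 arrays, at 7.07 to 8.50, and a probe detected on none, and so did Thy1 and Satb1. Levels of different probes are not comparable with each other, so these values describe detection only. Why the probes of these genes differ was not tested.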
